A study of Homo sapiens with 6 samples.

Results

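Glycolysis and hypoxia genes were examined in MOLP-8, an established line of human plasma cell myeloma, after CRISPR targeting of LIN28B. The set was chosen by symbol and holds 36 genes of the 57861 with usable values: 17 glycolytic enzymes, 4 glucose or lactate transporters, 2 pyruvate dehydrogenase kinases, and 13 genes for the hypoxia-inducible factor HIF1A, its hydroxylases and its targets, called HIF genes here. Expression was measured by RNA sequencing in 6 libraries. The 3 control libraries came from cells transduced with lentiCRISPRv2, a lentiviral vector for Cas9 and a guide RNA, with a scrambled guide. The 3 LIN28B KO libraries came from cells with a guide against LIN28B in that vector, and all cells were selected with puromycin in RPMI with serum. The condition label says KO and the titles KD, and the labels name no clone, time after transduction or oxygen level. They do not say whether the libraries of a group were separate cultures, so p-values measure the spread among these libraries alone, and that spread may be technical.

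Glycolysis splits glucose into pyruvate in the cytosol, and lactate dehydrogenase then turns pyruvate into lactate, which leaves the cell through monocarboxylate transporters. Pyruvate dehydrogenase kinases phosphorylate and block pyruvate dehydrogenase, which limits the entry of pyruvate into the citrate cycle. HIF1A is made at all times and, with oxygen present, is hydroxylated by EGLN enzymes and degraded. When oxygen is short it pairs with ARNT and switches on many of these genes. LIN28B blocks maturation of let-7 microRNAs, and the LIN28/let-7 axis has been tied to glycolysis through PDK1 in other cancer cells. Myeloma lines that use HK2 without HK1 have also been described.

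LIN28B, the targeted gene, stood at 23.3, 24.3 and 25.5 FPKM (fragments per kilobase of transcript, scaled to library size) in control libraries 1 to 3 and at 8.41, 8.17 and 5.84 FPKM in LIN28B KO libraries 1 to 3, 30.7% of the control mean. The plasma cell markers, SDC1, CD38, IRF4, PRDM1, XBP1, TNFRSF17, SLAMF7, MZB1 and CD79A, were all at a mean of at least 1 FPKM and summed to between 1990 and 3034 FPKM per library. T or NK, myeloid, erythroid, mature B cell and stromal or endothelial markers summed to at most 10.7 FPKM per list, highest for stroma in LIN28B KO library 3, and MS4A1, CD3D, NKG7, HBA1 and HBA2 were listed at 0 throughout. LIN28B KO library 3 stood apart: 17676 genes reached 1 FPKM there against 15356 to 15932 in the other libraries, and 30.4% of 401 olfactory receptor genes were above 0 against 10.2% to 14.5%. MALAT1, a nuclear RNA, was at 892 FPKM there against 259 to 331 FPKM elsewhere. For NEAT1, another nuclear RNA, LIN28B KO libraries 1 and 2 gave 459 and 452 FPKM, while the remaining 4 libraries spanned 310 to 323 FPKM. ACTB, a cytoplasmic actin, averaged 2303 FPKM in the controls, with 1888, 1930 and 1290 FPKM in LIN28B KO libraries 1 to 3. The part of these signs in the results was not tested. Class counts and the leading genes are therefore given with that library (6 libraries, 15803 genes tested) and without it (5 libraries, 11308 protein-coding genes tested), and other members without it. Cyclic loess, which removes trends of the log ratio with expression level, is given as a further reading. Of the 36 genes, 34 passed the filter of at least 1 FPKM in at least 3 libraries in both fits, each with a control mean of at least 2.27 FPKM. HK1 and CA9 did not pass.

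In LIN28B KO libraries 1 and 2 the enzymes of glycolysis lay mostly below the controls and the HIF genes mostly above. These classes do not divide HIF targets from other genes, because HIF also switches on members of the other classes. A list of 28 further tested HIF targets had a median log2 fold change of -0.04 without LIN28B KO library 3. Without LIN28B KO library 3, 15 of 16 tested enzymes had a log2 fold change below 0 with a median of -0.18, and 11 of 12 tested HIF genes one above 0 with a median of 0.18. Over all 11308 genes the median was -0.04 and 57.3% were below 0. The 4 transporters had a median of -0.10, and all 34 members one of -0.09. GAPDH and LDHA fell past the threshold of an adjusted p of 0.05 in limma, 2 of 34 members, while 3.02% of all tested genes fell. No member rose past it, while 1.08% of all genes did. Before adjustment 15 of the 34 had a p under 0.05, as did 22.8% of all genes. In these bulk libraries, fewer cells with a transcript and less RNA per cell cannot be told apart.

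With all 6 libraries no member passed (limma, adjusted p from 0.367 upward), and 0.0949% of all tested genes did. None of the 34 had an unadjusted p under 0.05, against 13.7% of all genes. All 16 tested enzymes had a log2 fold change below 0. Of 12 tested HIF genes 7 were above 0 and 5 below, and 66.5% of all genes were below 0. The median was -0.34 for the enzymes and 0.02 for the HIF genes, against -0.13 for all 15803 genes. LIN28B KO library 3 and expression level moved with these medians, and their part was not tested beyond the values given here. In LIN28B KO library 3 the middle log2 ratio (LIN28B KO over control mean) stood at -0.70 for the enzymes and -0.28 for the HIF genes, whereas LIN28B KO library 1 had -0.18 and 0.16 and LIN28B KO library 2 had -0.17 and 0.22. After cyclic loess the enzymes were at -0.08, -0.09 and -0.08 in LIN28B KO libraries 1 to 3 and the HIF genes at 0.17, 0.26 and 0.18, so the order of the 2 classes was the same in each LIN28B KO library under both scalings.

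**Figure D1:**
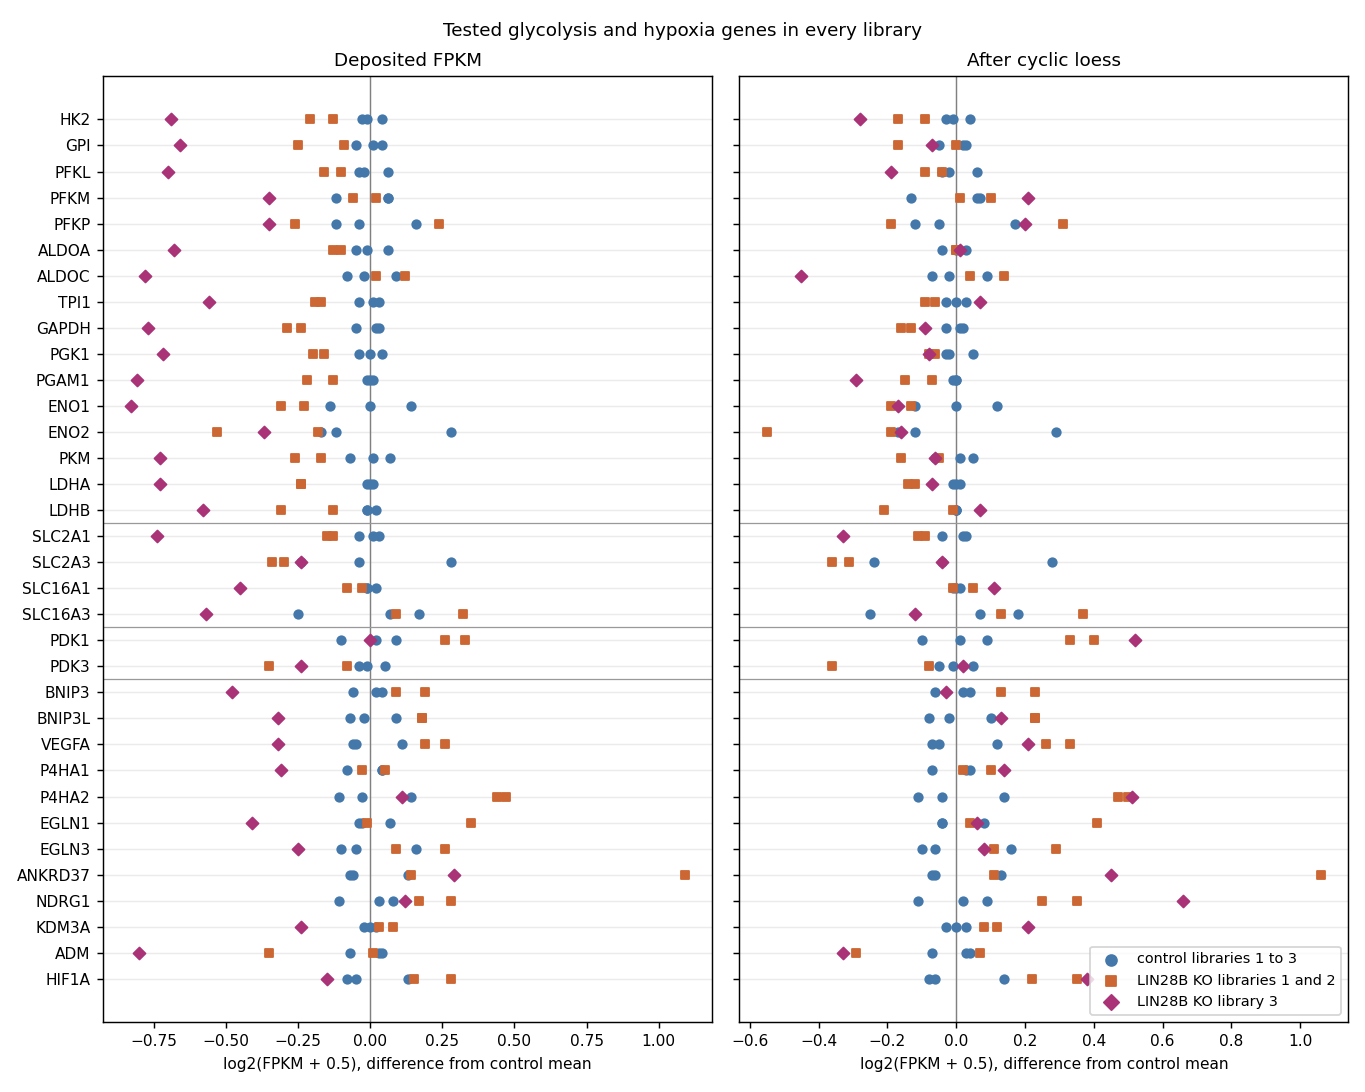
Log2(FPKM + 0.5) of each of the 34 tested genes as the difference from its control mean (x axis), 1 row per gene, with horizontal lines between enzymes, transporters, kinases and HIF genes. Circles are controls, squares LIN28B KO libraries 1 and 2, and diamonds LIN28B KO library 3, which has a median of -0.70 for the enzymes on the left (deposited FPKM) and -0.08 on the right (after cyclic loess).

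Level differed between the classes: the tested enzymes had a median control mean of 304 FPKM and the HIF genes one of 25.4 FPKM. Among 257 protein-coding genes at or above 300 FPKM in the control mean, the median log2 fold change without LIN28B KO library 3 was -0.14 and 80.5% were below 0. The 8 members at that level, ALDOA, TPI1, GAPDH, PGK1, ENO1, PKM, LDHA and LDHB, were all below 0 with a median of -0.22. Among 6300 genes at 10 to 100 FPKM the median was -0.05, while the 17 members there had a median of 0.14 and 11 of them were above 0. How much of the members' values goes with level was not tested beyond the cyclic loess fit. In that fit the enzymes had a median of -0.09 and the HIF genes one of 0.22 without LIN28B KO library 3, against 0.00 for all genes, and no member passed, while 2.25% of all genes did. An unadjusted p under 0.05 was reached by 8 members and by 20.9% of all genes.

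**Figure D2:**
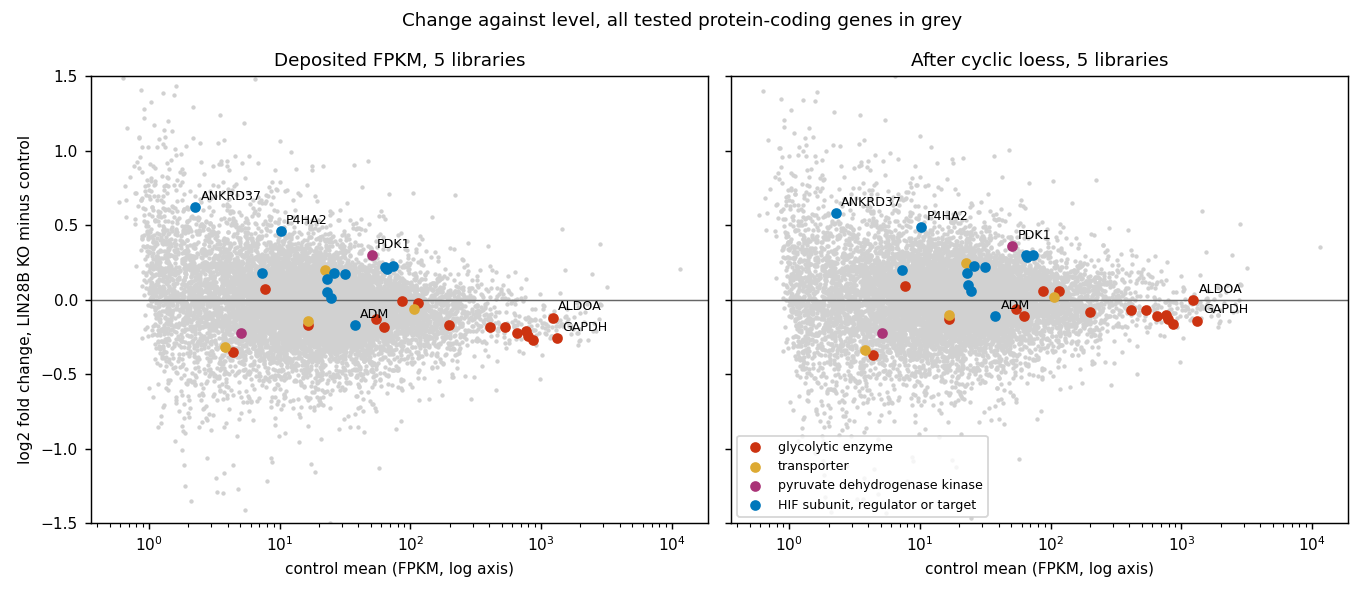
Log2 fold change of LIN28B KO libraries 1 and 2 against 3 controls (y axis) by control mean (x axis, log scale), with all 11308 tested genes in grey and the 34 members coloured by class (points beyond the axis are not drawn). On the left (deposited FPKM) the 8 members above 300 FPKM lie at a median of -0.22, and on the right (cyclic loess) the enzymes lie at a median of -0.09 and the HIF genes at 0.22.

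Groups that did not overlap were counted next. With all 6 libraries 16 of 34 members, 13 of them enzymes, were lower in every LIN28B KO library than in every control, as were 20.1% of all tested genes. Only NDRG1 and ANKRD37 were higher in every one, against 7.61% of all genes. Without LIN28B KO library 3 the counts were 17 lower and 9 higher, against 26.4% and 15.0% of all genes. After cyclic loess with all 6 libraries 7 were lower (HK2, GAPDH, PGK1, PGAM1, ENO1, LDHA and SLC2A1) and 7 higher (PDK1, BNIP3L, VEGFA, P4HA2, NDRG1, KDM3A and HIF1A), against 14.1% and 14.2% of all genes.

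GAPDH, which oxidises glyceraldehyde 3-phosphate, lies on chromosome 12 at 6643093 to 6647537 of GRCh37 (the deposited locus of the whole gene). It measured 1355, 1339 and 1282 FPKM across controls and 1086, 1125 and 775 FPKM across LIN28B KO libraries. All 3 LIN28B KO libraries lay below all controls, and LIN28B KO library 3 was the lowest. Control libraries averaged 1326 ± 38.4 FPKM (SD, n = 3) and LIN28B KO libraries 995 ± 192 FPKM (SD, n = 3). Without LIN28B KO library 3 GAPDH was 1.20-fold lower (log2 fold change -0.26, SE 0.04, limma adjusted p = 0.0301), and all 6 libraries together gave a log2 difference of -0.43 (SE 0.19, adjusted p = 0.367). An antisense gene model over GAPDH, RP5-940J5.9, had a control mean of 2235 FPKM and 86.9% of that in LIN28B KO libraries 1 and 2. The strand setting of the libraries is not given in the sources used here, so reads of the 2 models cannot be told apart. The 58 GAPDH pseudogene models summed to 3.20 to 5.02 FPKM per library.

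LDHA, the lactate dehydrogenase subunit that favours lactate formation, lies on chromosome 11 at 18415935 to 18429972 of GRCh37. Its controls were at 794, 784 and 789 FPKM, and the LIN28B KO libraries were at 666, 668 and 474 FPKM. The controls spanned less than the step down to LIN28B KO libraries 1 and 2, and LIN28B KO library 3 was lower still. LDHA was 1.18-fold lower without LIN28B KO library 3 (log2 fold change -0.24, SE 0.04, limma adjusted p = 0.0289), and all 6 libraries together gave a log2 difference of -0.41 (SE 0.18, adjusted p = 0.370). For both genes the call was lost when any 1 of the 5 libraries was left out (adjusted p of 0.0585 to 0.116 for GAPDH and 0.0675 to 0.114 for LDHA). It was also lost when all genes and not only protein-coding ones were tested (adjusted p of 0.0681 and 0.0622) and after cyclic loess (log2 fold changes of -0.14 and -0.13, adjusted p of 0.0890 and 0.107). In LIN28B KO libraries 1 and 2 GAPDH averaged 83.4% and LDHA 84.6% of the control mean, and ACTB, which is no member, 82.9%.

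The other enzymes did not pass in any of these fits. Hexokinase 2 (HK2), which phosphorylates glucose, measured 17.1, 16.2 and 16.4 FPKM across controls and 14.3, 15.1 and 10.1 FPKM across LIN28B KO libraries. The groups did not overlap, and its log2 fold change came to -0.17 without LIN28B KO library 3 (SE 0.08, adjusted p = 0.288) and -0.34 with it (SE 0.17, adjusted p = 0.405). GPI, the isomerase of glucose 6-phosphate, had a control mean of 198 FPKM and a log2 fold change of -0.17 (adjusted p = 0.173) without LIN28B KO library 3. The aldolase ALDOA went with -0.12 (adjusted p = 0.169) from a control mean of 1231 FPKM, and its value after cyclic loess was 0.00. TPI1, triosephosphate isomerase, and PGK1, phosphoglycerate kinase, each had -0.18 (adjusted p = 0.0754), at control means of 409 and 531 FPKM. The mutase PGAM1 was also at -0.18 (adjusted p = 0.153). The enolase ENO1 had -0.27 (adjusted p = 0.110), and its controls spread from 782 to 948 FPKM, more widely than those of LDHA. PKM, pyruvate kinase, had -0.21 (adjusted p = 0.0818) at a control mean of 764 FPKM, and LDHB, the other lactate dehydrogenase subunit, -0.22 (adjusted p = 0.0886) at 650 FPKM.

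Of the phosphofructokinases, which set the committed step of glycolysis, PFKL was lower in every LIN28B KO library than in every control, while PFKM and PFKP overlapped with the controls. PFKL had a log2 fold change of -0.13 (adjusted p = 0.297), PFKM of -0.02 (adjusted p = 0.914) and PFKP of -0.01 (adjusted p = 0.970) without LIN28B KO library 3. PFKP spread widely, at 84.2, 79.3 and 96.8 FPKM across controls and 72.1, 102 and 67.9 FPKM across LIN28B KO libraries. The low isoforms ALDOC and ENO2 were at control means of 7.73 and 4.37 FPKM, with log2 fold changes of 0.07 (SE 0.11) and -0.35 (SE 0.19). Both overlap other expressed gene models, LRRC23 at 4.11 FPKM for ENO2 and RP11-192H23.4 at 9.70 FPKM for ALDOC, so their values are uncertain.

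**Figure D3:**
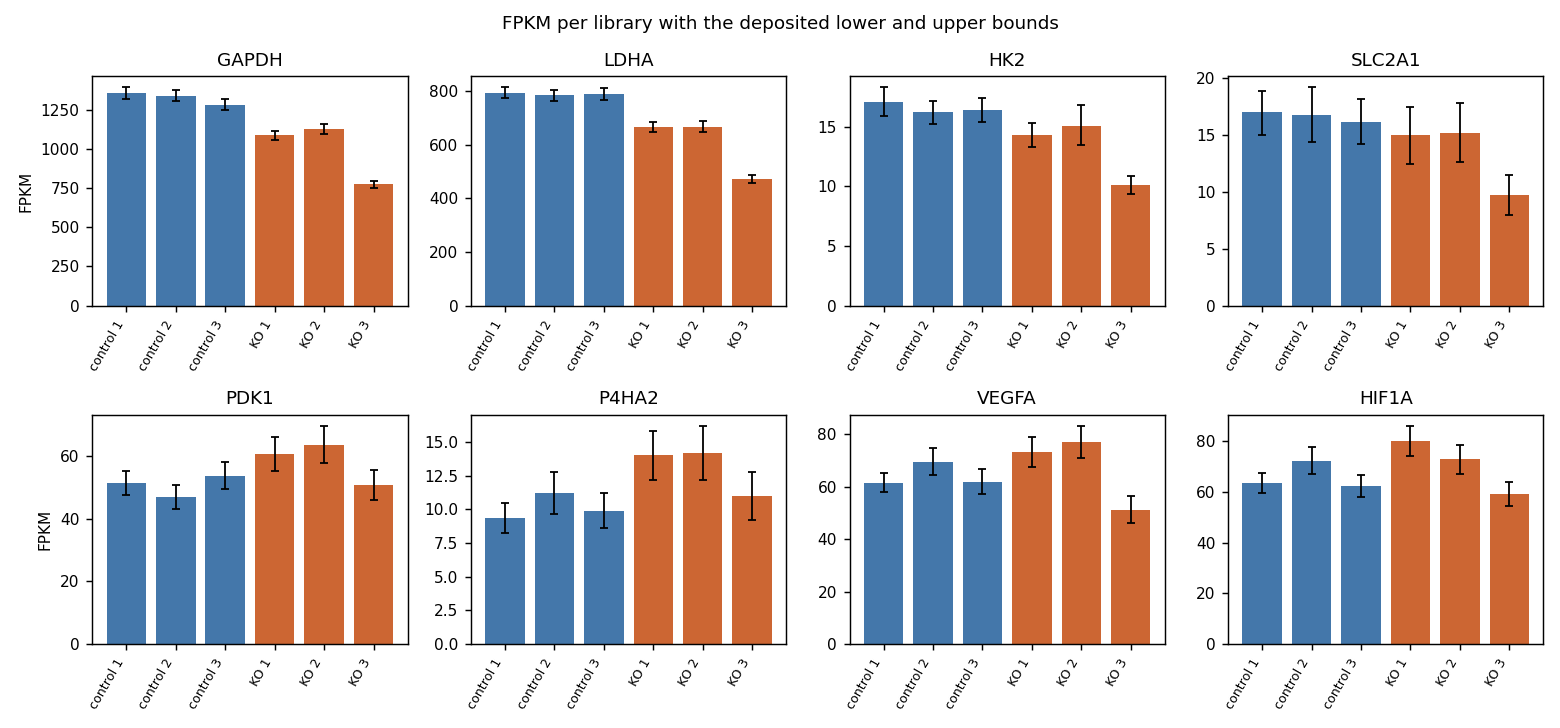
FPKM in each library (bars from 0, controls blue and LIN28B KO orange) for 8 members, with the lower and upper bounds deposited for that library. The bounds do not cover the spread between libraries. GAPDH, LDHA, HK2 and SLC2A1 are lower in all 3 LIN28B KO libraries than in any control, while PDK1, P4HA2, VEGFA and HIF1A are higher in LIN28B KO libraries 1 and 2 and not in library 3.

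Isoenzyme use was compared as the share of a family's summed FPKM within each library. Such a share does not depend on a scaling by 1 factor per library. It can change under a scaling that depends on level, such as cyclic loess. HK2 made up 99.2%, 97.0% and 98.3% of the hexokinase signal of HK1 and HK2 in the controls and 96.4%, 96.6% and 88.7% in the LIN28B KO libraries. HK1 measured 0.142, 0.504 and 0.288 FPKM across controls and 0.540, 0.541 and 1.28 FPKM across LIN28B KO libraries. The SD read from its deposited upper bound was 54.3% to 202% of the value. HK2 thus held most of the signal of this pair in all 6 libraries. HK1 overlaps another gene model, AC016821.1, at a control mean of 43.0 FPKM, so its own low value and this share are uncertain. The highest HK1 value was in LIN28B KO library 3, where genes such as olfactory receptors were also detected more often. PFKM, PFKP and PFKL held 44.9%, 33.9% and 21.2% of phosphofructokinase FPKM in the controls. The PFKL share was 21.2 ± 0.681% (SD, n = 3) in control and 19.0 ± 1.57% (SD, n = 3) in LIN28B KO, without overlap. LDHB held 45.2 ± 0.207% (SD, n = 3) of LDHA plus LDHB in control and 46.3 ± 2.06% (SD, n = 3) in LIN28B KO, with overlap. ALDOC and ENO2 held under 1% of their families in every library. The share of PDK3 in PDK1 plus PDK3 was 9.00%, 10.1% and 8.39% in the controls and 7.33%, 5.73% and 7.73% in the LIN28B KO libraries. The shares of HK2, PFKL and PDK3 did not overlap between groups (exact two-sided permutation test, p = 0.1, the smallest that 3 against 3 allows, and 0.333 adjusted over 10 shares), and the other 7 shares overlapped.

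**Figure D4:**
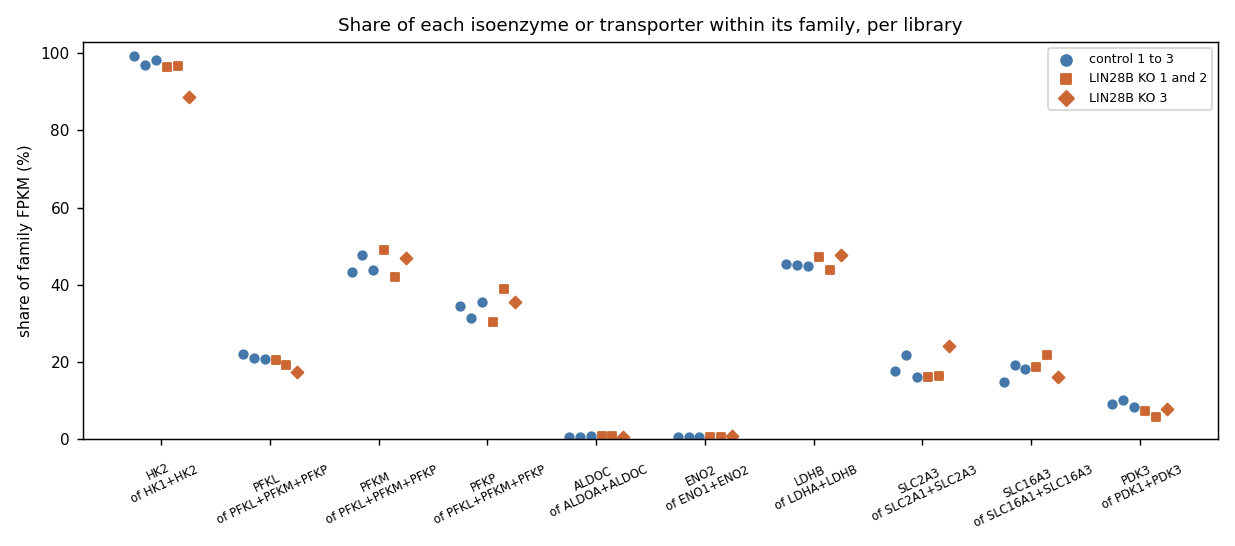
Share of a family's summed FPKM held by 1 member (y axis, percent) for 10 shares (x axis), with 1 point per library, circles for controls, squares for LIN28B KO libraries 1 and 2 and diamonds for LIN28B KO library 3. HK2 lies between 88.7% and 99.2%, and PDK3 is lower in the 3 LIN28B KO libraries (5.73% to 7.73%) than in the controls (8.39% to 10.1%).

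All 4 transporters had log2 differences below 0 with all 6 libraries (median -0.24), 3 of 4 did without LIN28B KO library 3, and 2 of 4 did after cyclic loess with or without it. The glucose transporter SLC2A1 measured 17.0, 16.8 and 16.2 FPKM across controls and 15.0, 15.2 and 9.73 FPKM across LIN28B KO libraries, all below the controls. Its log2 fold change came to -0.14 without LIN28B KO library 3 (SE 0.08, adjusted p = 0.366) and -0.34 with it (SE 0.19, adjusted p = 0.429). SLC2A3, a high-affinity glucose transporter, was low, at a control mean of 3.81 FPKM, and its log2 difference was -0.32 (SE 0.18, adjusted p = 0.341). Its 3 pseudogene models summed to 35.2% of its control mean. The lactate transporters SLC16A1 and SLC16A3 were at control means of 106 and 22.3 FPKM. Their log2 fold changes were -0.06 (adjusted p = 0.556) and 0.20 (adjusted p = 0.439), and SLC16A3 overlaps CSNK1D, at 65.9 FPKM in the controls. The SLC16A3 value was 0.08 without control library 1 and 0.09 without LIN28B KO library 2.

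PDK1, the pyruvate dehydrogenase kinase induced by HIF, lay above the controls in LIN28B KO libraries 1 and 2, where most enzymes lay below. Its deposited locus is chromosome 2, 173420101 to 173489823 (GRCh37), and it was at 51.3, 47.0 and 53.7 FPKM in the controls. In LIN28B KO libraries 1 to 3 it was at 60.7, 63.7 and 50.7 FPKM, so libraries 1 and 2 were above all controls and library 3 was within their range. Its log2 fold change came to 0.30 without LIN28B KO library 3 (SE 0.08, limma adjusted p = 0.0872) and 0.20 with it (SE 0.14, adjusted p = 0.503). After cyclic loess with all 6 libraries on protein-coding genes, a fit added after the data were seen, the log2 ratios to the control mean were 0.33, 0.40 and 0.52, all above the controls. In that fit PDK1 rose (log2 fold change 0.42, SE 0.08, adjusted p = 0.0439), the 1 member to pass where 2.40% of all genes did. The call was lost with cyclic loess without LIN28B KO library 3 (adjusted p = 0.0677) and on all 15803 genes (adjusted p = 0.0808). Within each library PDK1 stood at 6.46%, 5.99% and 6.81% of LDHA in the controls and at 9.10%, 9.54% and 10.7% in the LIN28B KO libraries. LDHA stood far above PDK1 in level, and like the isoenzyme shares this ratio can change under a scaling that depends on level. The ratio was 1.52 times the control mean and did not overlap between groups (exact two-sided permutation test, p = 0.1, the smallest possible). It was 1 of 5 such ratios, all chosen after the values were seen and all with that p, raw and adjusted over the 5. PDK3, a second kinase of this family, measured 5.07, 5.28 and 4.92 FPKM across controls and 4.80, 3.87 and 4.24 FPKM across LIN28B KO libraries. Its log2 fold change was -0.22 without library 3 (SE 0.13, limma adjusted p = 0.383) and -0.08 without library 2 as well. The overlap with AC004656.1 leaves these PDK3 values uncertain.

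The HIF genes lay mostly above the controls in LIN28B KO libraries 1 and 2, without passing the threshold. HIF1A, the oxygen-labile subunit, measured 63.4, 72.3 and 62.3 FPKM across controls and 80.1, 72.9 and 59.2 FPKM across LIN28B KO libraries. LIN28B KO library 2 was just above the highest control and library 3 below the lowest. Its log2 fold change came to 0.21 without LIN28B KO library 3 (SE 0.09, adjusted p = 0.206) and 0.09 with it (SE 0.15, adjusted p = 0.781). P4HA2, a collagen prolyl hydroxylase, measured 9.38, 11.2 and 9.88 FPKM across controls and 14.0, 14.2 and 11.0 FPKM across LIN28B KO libraries. Library 3 was within the controls' range. Its log2 fold change came to 0.46 without library 3 (SE 0.11, adjusted p = 0.0686) and 0.34 with it (SE 0.15, adjusted p = 0.373). P4HA1, its paralog, was at 0.01 (adjusted p = 0.956). P4HA2 was at 37.1%, 48.2% and 39.0% of P4HA1 in the controls and at 54.7%, 58.9% and 55.9% in the LIN28B KO libraries, without overlap.

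VEGFA, the angiogenic growth factor, measured 61.5, 69.6 and 62.0 FPKM across controls and 73.3, 77.1 and 51.3 FPKM across LIN28B KO libraries. Its log2 fold change came to 0.22 without library 3 (SE 0.08, adjusted p = 0.148), and an antisense model over it, RP1-261G23.7, was at a control mean of 359 FPKM. NDRG1, a stress-induced cytosolic protein, measured 74.7, 77.2 and 67.4 FPKM across controls and 82.4, 88.9 and 79.1 FPKM across LIN28B KO libraries, all above the controls (log2 fold change 0.23 without library 3, adjusted p = 0.151). The mitophagy receptors BNIP3 and BNIP3L had log2 fold changes of 0.14 (adjusted p = 0.358) and 0.18 (adjusted p = 0.247). The HIF hydroxylases EGLN1 and EGLN3 had 0.17 (adjusted p = 0.435) and 0.18 (adjusted p = 0.448), with 1 high value for EGLN1 of 40.5 FPKM in LIN28B KO library 2. Without that library as well, EGLN1 was at -0.01 and EGLN3 at 0.09. EGLN3, at a control mean of 7.28 FPKM, overlaps SPTSSA, at 22.6 FPKM in the controls, so the EGLN3 value is uncertain. ANKRD37, an ankyrin repeat protein, measured 2.54, 2.14 and 2.15 FPKM across controls and 2.55, 5.39 and 2.88 FPKM across LIN28B KO libraries. It shares its locus with UFSP2, at a control mean of 27.3 FPKM and at 31.0, 40.0 and 16.3 FPKM in LIN28B KO libraries 1 to 3. The ANKRD37 values are therefore uncertain. The log2 fold change of ANKRD37, 0.62 (SE 0.28, limma adjusted p = 0.242), rested on LIN28B KO library 2, and without that library it was 0.14. The histone demethylase KDM3A was at 0.05 (adjusted p = 0.703). ADM, adrenomedullin, was the 1 HIF gene below 0, at -0.17 (adjusted p = 0.432), and without LIN28B KO library 2 its value was 0.01. CA9, a carbonic anhydrase strongly induced by hypoxia, was listed at 0 in 4 libraries and at 0.0731 and 0.110 FPKM in the others.

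**Figure D5:**
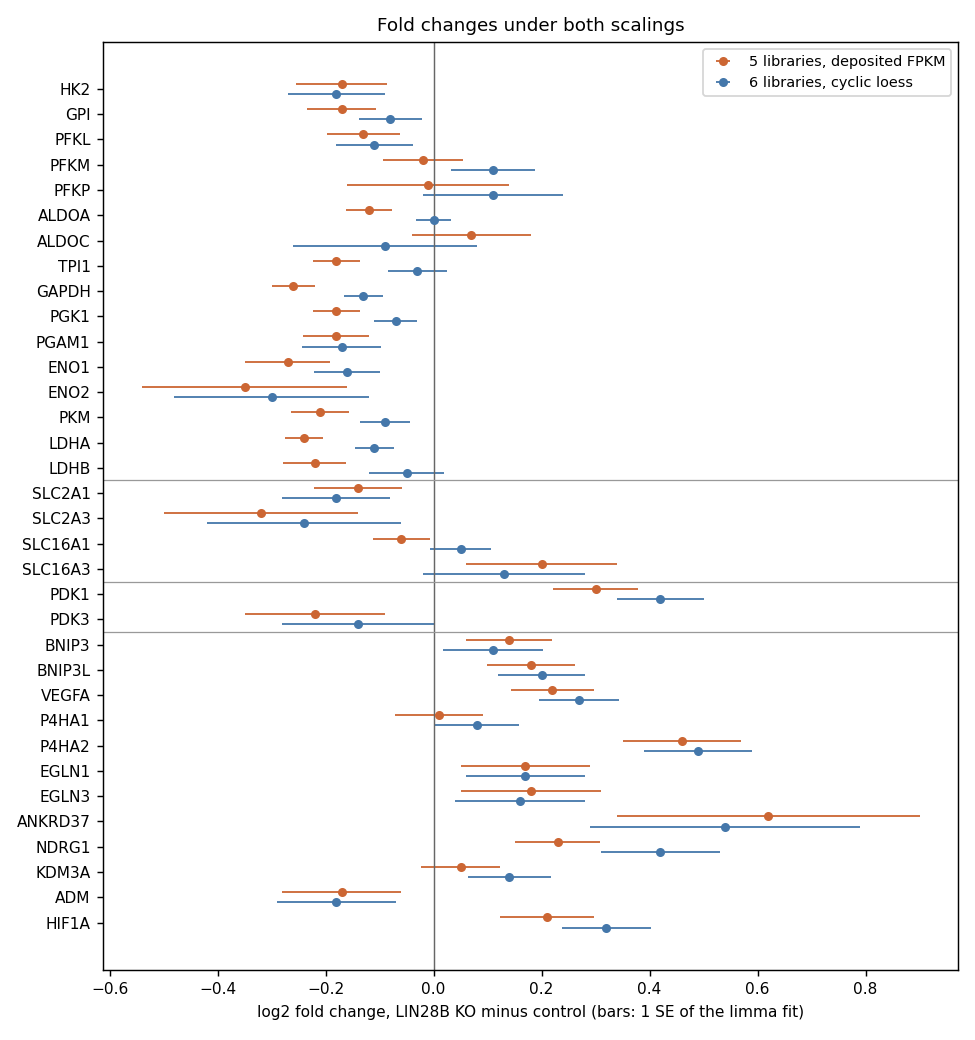
LIN28B KO against control, as log2 fold change, for the 34 tested genes (x axis, bars of 1 SE of the limma fit), without LIN28B KO library 3 as deposited (orange) and with all 6 libraries after cyclic loess (blue). PDK1 (0.30 and 0.42) and P4HA2 (0.46 and 0.49) lie above 0 in both, and GAPDH (-0.26 and -0.13) and LDHA (-0.24 and -0.11) below.

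Neighbouring pathways were read in the fit without LIN28B KO library 3, where 3.02% of all tested genes fell and 1.08% rose. Of 11 tested further glycolysis enzymes and regulators, 1 fell and none rose, with a median of -0.11. It was ENO3, the muscle enolase (1.26-fold lower, adjusted p = 0.0289), but its gene overlaps PFN1, at 417 FPKM in the controls, so its 372 FPKM is uncertain. PFKFB3, which makes the allosteric activator of phosphofructokinase, measured 11.0, 8.24 and 8.28 FPKM across controls and 5.59, 6.17 and 4.07 FPKM across LIN28B KO libraries, all below the controls (log2 fold change -0.59, SE 0.15, adjusted p = 0.0833). Of 9 pentose phosphate genes, TALDO1, transaldolase, fell (1.24-fold, adjusted p = 0.0439), and TKTL1, a transketolase-like protein, was at -0.37 (adjusted p = 0.0786). None of 28 genes of pyruvate entry and the citrate cycle passed (median -0.12), with malate dehydrogenase MDH2 at -0.27 (adjusted p = 0.0677) and PDHA1, the target of PDK1, at -0.18 (adjusted p = 0.126).

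None of 12 tested HIF subunits and regulators passed, with a median of 0.01. EPAS1, the HIF2 alpha subunit, measured 2.39, 2.30 and 2.46 FPKM across controls and 4.14, 3.27 and 2.24 FPKM across LIN28B KO libraries (log2 fold change 0.54, adjusted p = 0.102). VHL, which marks hydroxylated HIF for degradation, was at -0.09 (adjusted p = 0.522). Of 28 further HIF targets 2 rose and none fell, while 1.08% of all tested genes rose and 3.02% fell. The median of these targets was only -0.04, the same as that of all genes. TMEM45A, a membrane protein, measured 12.5, 12.3 and 14.4 FPKM across controls and 20.1, 19.9 and 25.2 FPKM across LIN28B KO libraries, above the controls in library 3 too (1.52-fold, SE 0.10 on the log2 scale, adjusted p = 0.0330). HMOX1, heme oxygenase, was 1.56-fold higher (adjusted p = 0.0386), at 5.95 FPKM in control and at 8.92, 10.3 and 7.33 FPKM in LIN28B KO libraries 1 to 3. STC2, stanniocalcin, was at -0.74 (SE 0.20, adjusted p = 0.0942) and YEATS2 at -0.34 (adjusted p = 0.114). With all 6 libraries none of the genes in the 5 lists passed. After cyclic loess without LIN28B KO library 3 only TMEM45A and HMOX1 did (adjusted p of 0.0354 and 0.0480). None of the 4 calls held when any 1 of the 5 libraries was left out, since 0 of all genes passed then.

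Sequence features of the members were searched, and stretches are shown for a few members that hold a motif. HIF binds the core motifs ACGTG and GCGTG, and the 250 bases before each RefSeq gene start (GRCh38.p14) were searched for both on both strands, an overlap such as CACGTG counting for each strand. Windows were found for 31 members. Among them 25 (80.6%) had either motif in at least 1 window and 19 (61.3%) had ACGTG, against 66.1% and 29.6% of 8676 tested genes with a window. Over all 35116 windows the shares were 43.2% and 18.5%. The set was chosen in part for known HIF targets, and some genes have several windows, so these shares describe the set. BNIP3L, NDRG1, SLC16A1, SLC2A3 and VEGFA had no entry. The values of GAPDH, LDHA and PGK1 were lower in LIN28B KO, and those of PDK1 were higher in LIN28B KO libraries 1 and 2. ANKRD37 stood out only in LIN28B KO library 2, with 2.55 FPKM in library 1 against 2.54 FPKM in control library 1. PGK1 and ANKRD37 passed in none of these fits. The stretches around the motifs of these genes (capitals, with 20 bases on either side where the window allows) are shown 5′ to 3′ on the gene's strand.
GAPDH, chr12:6535163-6535208, plus strand: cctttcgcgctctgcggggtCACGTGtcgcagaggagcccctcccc
LDHA, chr11:18394358-18394514, plus strand: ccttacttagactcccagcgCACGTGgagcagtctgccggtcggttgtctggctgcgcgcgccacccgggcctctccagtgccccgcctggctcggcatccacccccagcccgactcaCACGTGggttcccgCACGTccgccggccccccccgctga
PGK1, chrX:78104017-78104089, plus strand: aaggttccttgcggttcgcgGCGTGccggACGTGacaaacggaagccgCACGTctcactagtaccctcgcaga
PDK1, chr2:172556053-172556089, plus strand: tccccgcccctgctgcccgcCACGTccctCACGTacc
ANKRD37, chr4:185396659-185396722, plus strand: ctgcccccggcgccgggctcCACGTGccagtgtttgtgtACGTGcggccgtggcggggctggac

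These stretches were picked because they hold a motif. The deposited loci are on GRCh37 and the windows on GRCh38.p14, and how far a window lies from a gene's 5′ end was not tested. GAPDH had only 1 listed window, which may not lie at its main start. By class, either motif was found for 14 of 17 enzymes, 1 of 2 transporters, 2 of 2 kinases and 8 of 10 HIF genes with a window, and ACGTG for 11, 1, 2 and 5 of them. PKM, LDHB, PGAM1, SLC2A1, EGLN3 and P4HA2 had neither. GAPDH and ANKRD37 each hold 1 copy of CACGTG, the E-box that MYC and related factors also bind, and the LDHA stretch holds 2 copies and a single CACGT. PDK1 holds CACGT 17 and 8 bases before the second of its listed starts.

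Sites for let-7 were searched because LIN28B blocks its maturation. The 9 mature let-7 and miR-98 sequences in RefSeq share 1 seed (bases 2 to 8, capitals), of which 2 are shown.
hsa-let-7a-5p: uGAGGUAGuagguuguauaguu
hsa-miR-98-5p: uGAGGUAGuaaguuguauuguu

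Matches to all or most of the seed, CTACCTC or TACCTCA, were counted on the sense strand of the longest 3′ UTR of each gene (GENCODE 29). CTACCTC pairs with the whole seed. TACCTCA pairs with all of the seed but its last base and ends in an A. Of 34 members 4 (11.8%) had a match, against 18.0% of 11190 tested genes with a UTR, whose median length was 1367 bases against 1057 for the members. The 5 sites, with the match in capitals, were as follows.
ALDOC: ggctgggtctccccCTACCTCttccagc
HK2: actagtcatagaaaTACCTCAttcgcct
KDM3A: tttgagattcatgtTACCTCAtcttctt
P4HA2, first site: gcaaggtgcctttgTACCTCAggtgttt
P4HA2, second site: cgttttcaagtcagTACCTCAggagccc

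The log2 fold changes of these 4 genes without LIN28B KO library 3 were 0.07, -0.17, 0.05 and 0.46, so P4HA2, with 2 sites, had the highest value of the 4. The UTR of PDK1, 12700 bases long, held no match, and neither did those of GAPDH and LDHA.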

How the data were processed

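The submitters' processing notes list HTSeq, TopHat2, cutadapt and the build GRCh37, without versions or roles. The authors deposited 1 table per library with FPKM per gene and lower and upper bounds, per the file headers. No read numbers were given, so depth is not known. What error the bounds cover is not stated. The SD read from the upper bound ranged from 2.69% to 8.07% of the value for PFKP and from 2.31% to 2.82% for PFKL. It is therefore not taken as counting error alone. Each table had 58000 rows for 57886 genes. Rows of 108 genes listed more than once were summed, and 25 genes with a failed estimate were left out. An exact 0 that remained carried no mark of failure, though an unmarked failure could not be checked.

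The test was limma 3.58.1 in R 4.3.3 (variance trend, no covariates) on log2(FPKM + 0.5), for genes with at least 1 FPKM in at least 3 libraries, with Benjamini-Hochberg adjustment over all genes tested. Protein-coding genes were taken from GENCODE 29 by identifier. Fold changes on this scale understate those of low genes. Alternatives were other pseudocounts, filters and scalings, a replicate block and each library left out. Only the limma fit was tested on simulated data, and the pass mark covered changes far larger than those of the members. The simulation held no outlying library and no trend with level.

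The members, lists and tests were chosen with earlier results of these data known. Full values were given for GAPDH, LDHA, PDK1, HIF1A, HK2 and SLC2A1 by rule (called members and 5 named at the outset) and for other members after their values were seen, and from each other list up to 4 genes by p.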

Additional observations from a re-analysis of the deposited data

How the results depend on the processing

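The small calls were the least stable values: GAPDH and LDHA kept their direction under every alternative run, and kept the call only under other pseudocounts, with the highest of repeated rows and at FPKM of at least 5. Without LIN28B KO library 3, where 341 genes were lower and 122 higher with 2 members lower and a member median of -0.09, the counts of genes lower and higher were 18 and 6 with no filter (0 members, median -0.04), 133 and 114 with quantile scaling (0 members, median 0.03), 132 and 122 with cyclic loess (0 members, median 0.01) and 41 and 23 with all genes (0 members). At FPKM of at least 5 the member median was -0.04. Leaving out each further library gave 0 to 0 genes lower, 0 to 0 higher, 0 to 0 members and medians from -0.10 to -0.06. The cause of these differences was not tested.

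With all 6 libraries, where 5 genes were lower and 10 higher and the member median was -0.22, the counts were 1 and 5 with no filter, 1 lower at FPKM of at least 5, 13 lower with quantile scaling (median -0.05), 54 and 57 with cyclic loess (median -0.02), 18 lower among protein-coding genes, and 142 and 132 with cyclic loess on protein-coding genes (1 member higher, median -0.01), the fit chosen after seeing the data. Leaving out each library gave 0 to 41 genes lower, 1 to 23 higher and medians from -0.30 to -0.09. The cause was not tested.

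Same-numbered libraries deviated together little (correlations of -0.02, 0.04 and -0.03), so the numbers were not taken as a pairing. With the replicate number as a block, 2 genes were lower with all 6 libraries, and without LIN28B KO library 3 there were 0 lower, 0 higher and 0 members, with PFKM at 0.01 and PFKP at 0.07.

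Members near 0 changed sign. Without LIN28B KO library 3, quantile scaling put PFKM at 0.06, PFKP at 0.04, ALDOA at 0.04 and SLC16A1 at 0.01, and cyclic loess put them at 0.06, 0.06, 0.003 and 0.02. With 1 more library left out, PFKM ranged from -0.08 to 0.02, PFKP from -0.26 to 0.24, P4HA1 from -0.03 to 0.05, EGLN1 from -0.01 to 0.35 and ADM from -0.35 to 0.01. With 1 of all 6 libraries left out, HIF1A ranged from -0.003 to 0.21. Other members without LIN28B KO library 3 whose value moved by over 1.5 times with 1 more library left out, without changing sign, ranged from -0.25 to -0.09 (GPI), 0.02 to 0.12 (ALDOC), -0.53 to -0.18 (ENO2), -0.31 to -0.13 (LDHB), -0.44 to -0.18 (SLC2A3), -0.08 to -0.03 (SLC16A1), 0.08 to 0.32 (SLC16A3), -0.35 to -0.08 (PDK3), 0.09 to 0.19 (BNIP3), 0.09 to 0.26 (EGLN3), 0.14 to 1.09 (ANKRD37) and 0.03 to 0.08 (KDM3A). The differences in isoenzyme share, in percentage points, ranged with 1 library left out from -0.425 to 3.19 for PFKM, -0.892 to 3.36 for PFKP, -0.00916 to 0.0869 for ALDOC, -0.0473 to 0.0821 for ENO2, -2.34 to 1.99 for SLC2A3 and -0.0868 to 2.79 for SLC16A3, while those of HK2 (-5.60 to -1.69), PFKL (-2.93 to -1.37) and PDK3 (-2.64 to -1.64) stayed below 0. The low genes were less certain: the SD read from the upper bound was 16.3% to 22.6% of the value for ANKRD37 against 1.32% to 1.45% for GAPDH.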
